A study of Mus musculus with 20 samples.

Results

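The clustered protocadherin genes fill 3 neighbouring clusters, alpha, beta and gamma, on mouse chromosome 18. Members were all protein-coding genes whose symbols start with Pcdha, Pcdhb or Pcdhg in the GENCODE annotation of mm9. These were 24 gene records of 22342 protein-coding genes. Because that annotation folds the alternative first exons of the alpha and gamma clusters into shared records, the members were followed as 40 separate promoters: 10 alpha, 21 beta and 9 gamma. RefSeq names 58 genes in the clusters, and the other 18 had no annotated protein-coding start here. They were Pcdha5, Pcdha6, Pcdha7, Pcdha8, Pcdhb20, Pcdhga1, Pcdhga2, Pcdhga4, Pcdhga5, Pcdhga6, Pcdhga7, Pcdhga10, Pcdhgb1, Pcdhgb2, Pcdhgb4, Pcdhgb5, Pcdhgb7 and Pcdhgb8.

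Clustered protocadherins are cell-surface adhesion proteins that bind identical proteins on facing membranes, and they give individual neurons distinct surface identities. In the alpha and gamma clusters each variable first exon has its own promoter and is spliced to shared constant exons that encode the end of the intracellular domain, whereas beta genes are single exons with no constant part. Most variable promoters are known to be chosen at random in single neurons, through contact with distant enhancers that depends on CTCF and cohesin. The C-type genes (Pcdhac1, Pcdhac2, Pcdhgc3, Pcdhgc4 and Pcdhgc5), at the downstream ends of the alpha and gamma arrays, are known to be expressed in a more uniform way across neurons.

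The study profiled the embryonic ventral forebrain at embryonic day 13.5 by chromatin immunoprecipitation and sequencing (ChIP-seq). Of 20 samples, 10 had a peak list. NKX2-1 and LHX6, homeodomain transcription factors of the medial ganglionic eminence (MGE, the source of many cortical interneurons), were profiled in wild-type basal ganglia of the CD-1 strain. H3K4me3, a mark of active or poised promoters, H3K27ac, a mark of active promoters and enhancers, H3K4me1, common at enhancers, and H3K27me3, the Polycomb mark, were profiled in C57BL/6 MGE of wild-type and Nkx2-1cKO embryos. The latter, a conditional Nkx2-1 mutant, is called the mutant below. The Cre driver and the number of embryos pooled are not given in the sources used here.

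Each antibody and genotype had 1 library, so no difference between genotypes has a replicate check and none was tested. Libraries held 26.8 to 89.1 M tags after duplicates were removed. The mutant lists covered more of the genome. The ratio of mutant to wild-type length was 1.22 (H3K4me3), 1.32 (H3K27me3), 1.12 (H3K27ac) and 1.10 (H3K4me1). The H3K4me3 libraries held 28.8 M tags in wild type and 26.8 M in the mutant, and their inputs 63.2 and 39.0 M. All 10 genes listed as MGE and ventral telencephalon markers carried all 4 marks in both genotypes, while 1 of 6 pallial genes, 1 of 4 microglial genes and, in the mutant alone, 1 of 4 endothelial genes had H3K27ac. The peak lists cannot check the deletion of Nkx2-1 itself, whose promoter window lay wholly inside H3K27ac regions in both genotypes (2001 bases). In the window of Lhx6, H3K27ac covered 2001 bases in wild type and 387 in the mutant.

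A promoter was counted as marked when at least 1 base within 1 kb of its transcription start site (TSS), a window of 2001 bases, lay inside a region of the authors' list. H3K4me3 marked 35 of the 40 promoters in wild type, against 61.4% of all protein-coding genes, and 32 in the mutant, against 62.5%. H3K27ac and H3K4me1 were rarer than among all genes, and H3K27me3 was not. H3K27ac was present at 6 promoters in wild type and 6 in the mutant (53.7% and 55.6% of all genes), H3K4me1 at the same 5 in both (59.6% and 59.3%), and H3K27me3 at 9 and 8 (17% and 19.6%). No promoter had H3K4me1 in 1 genotype alone, where 1.39% of all genes had it in the mutant alone and 1.62% in wild type alone, and none had H3K27me3 in the mutant alone (2.93%). No neighbouring windows overlapped and no region reached a second promoter, so the counts are of separate regions, while the promoters still share the same libraries.

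**Figure D1:**
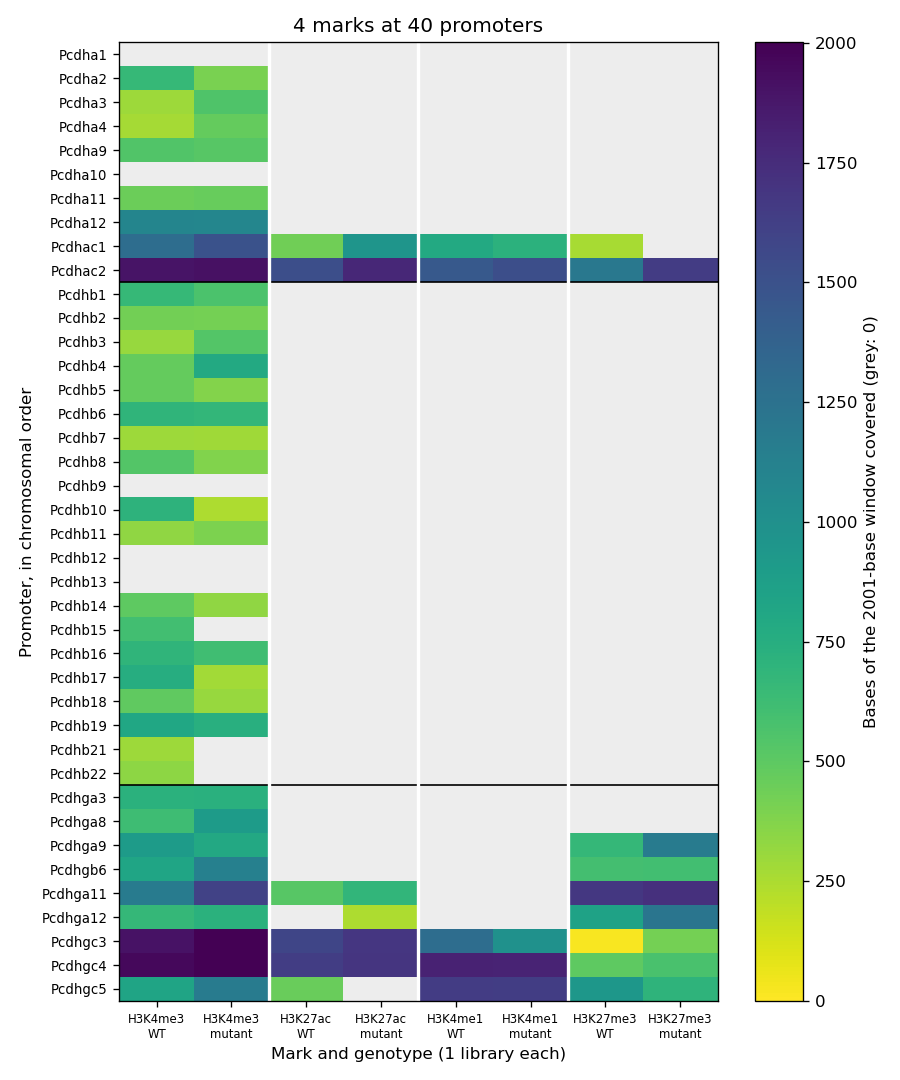
Bases of each 2001-base promoter window inside regions of the 4 marks (columns, wild type and mutant, 1 library each) for the 40 promoters in chromosomal order (rows); grey is 0 and black lines divide the alpha, beta and gamma clusters. H3K4me3 runs through most rows, the 21 beta rows hold no other mark, and the 5 C-type rows hold all 4 marks in wild type.

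H3K4me3 without any of the other 3 marks was the commonest state of the variable promoters. It was found at 26 of the 40 promoters in wild type, against 0.824% of all genes and 1.34% of genes with H3K4me3. In the mutant it was found at 23, against 0.949% and 1.52%. In wild type these were 6 of the 8 alpha promoters other than the C-type, 18 of 21 beta promoters and 2 of 6 gamma promoters other than the C-type. Of the 184 genes in this state in wild type, 19 were clustered protocadherin records. In tissue of many cells, a promoter marked in fewer cells and one marked more weakly in each cell cannot be told apart.

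These regions were short, weak and placed just inside the gene. The region with the strongest summit in the window had a median length of 575 bases at the 30 marked promoters other than the C-type in wild type, against 2371 at the C-type promoters and 2081 at all genes with a summit. In the authors' fold enrichment over input, the medians were 6.90, 28.4 and 29.1. In the mutant the median lengths were 532, 2469 and 2259 bases. The wild-type summits lay downstream of the TSS at 34 of 35 promoters and on it at Pcdhb6, up to 732 bases away with a median of 181, where all genes had a median of 261. At 11 of the 40 promoters the annotated TSS is the first base of the start codon, and distances there are measured from the codon.

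**Figure D2:**
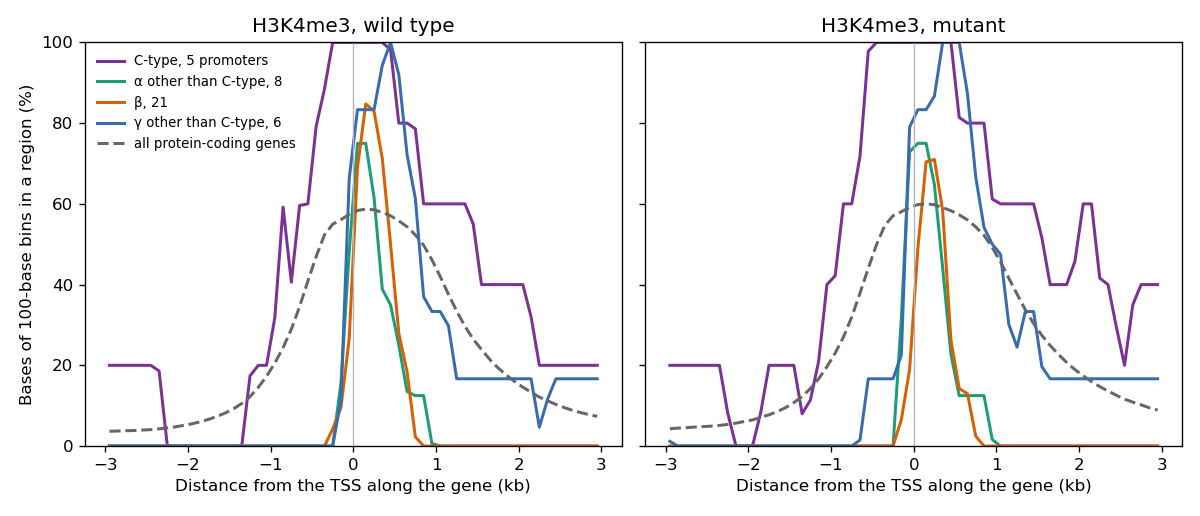
Share of bases inside H3K4me3 regions (percent, in 100-base bins) against distance from the TSS along the gene (kb, negative is upstream) for C-type, other alpha, beta and other gamma promoters and all protein-coding genes, in wild type (left) and the mutant (right). The beta and alpha curves are narrow and lie mostly downstream of the TSS, while the C-type curve extends further on both sides of it.

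Alpha promoters differed among themselves, with coverage greatest at the downstream end of the array. The H3K4me3 region covered 657 bases in wild type and 406 in the mutant at Pcdha2, 297 and 550 at Pcdha3, 270 and 475 at Pcdha4, 542 and 522 at Pcdha9, and 450 and 464 at Pcdha11. Pcdha12, the last variable promoter before the C-type genes, had 1091 and 1085 bases. Its region is also that of the neighbouring record Gm10545, whose window overlaps it. Pcdha1, the first gene of the cluster, and Pcdha10 had no H3K4me3 in either genotype. Over all 8 marked alpha promoters, C-type included, 3 had fewer bases in the mutant and 5 had more, and the sums were 6.493 and 6.909 kb.

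The beta promoters carried H3K4me3 alone, and at most of the marked ones it covered fewer bases in the mutant. In wild type 18 of 21 were marked, with 290 to 812 bases, and in the mutant 15, with 250 to 789 bases. Pcdhb9, Pcdhb12 and Pcdhb13 had none in either genotype. Coverage was smaller in the mutant at 15 of the 18 marked promoters and larger at 3 (Pcdhb3, Pcdhb4 and Pcdhb11), with wild-type and mutant sums of 9.388 and 6.933 kb. Among all genes with H3K4me3, 10.9% had fewer bases in the mutant and 68.8% had more, and among those with at most 1000 bases in both genotypes the shares were 12.2% and 87.5%. No H3K27ac, H3K4me1 or H3K27me3 region lay anywhere in the 256.422 kb of the beta cluster in either genotype.

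The promoters in the wild-type H3K4me3 list alone were 3, all of them beta, and none was in the mutant list alone; the shares of all genes were 0.121% and 1.21%. These counts depended on the rule: they were 5 and 3 with 500 covered bases required, and 5 and 2 with −log10 p of at least 10. Of only 27 genes with H3K4me3 in wild type alone, 3 were clustered protocadherins. Pcdhb15 had 608 bases in wild type and 0 in the mutant, with a wild-type summit of 7.42-fold enrichment and −log10 p 22.1. Pcdhb21 had 295 and 0 bases (4.74-fold, −log10 p 10.5). Pcdhb22, the last beta gene, had 343 and 0 bases (3.91-fold, −log10 p 7.54). The wild-type summits of the last 2 lay near the weak end of that list, with 11.0% and 2.36% of its regions weaker, while 32.3% were weaker than that of Pcdhb15. An absent region means that the caller's threshold was not reached, not that the mark was absent.

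Other beta promoters kept a region in both genotypes. Pcdhb1, the first gene of the cluster and the most strongly enriched beta promoter in wild type, had 663 bases at 10.3-fold in wild type and 570 at 6.54-fold in the mutant. Pcdhb17, with 752 and 280 bases, and Pcdhb10, with 704 and 250, had the largest differences among these and were named after their values were seen. Coverage at the other promoters with fewer bases in the mutant ran from 290 and 287 at Pcdhb7 to 812 and 740 at Pcdhb19. The exceptions had 308 and 532 bases (Pcdhb3), 475 and 789 (Pcdhb4) and 334 and 395 (Pcdhb11). Pcdhb20, a pseudogene record in this annotation and so no member, had 651 bases in wild type and 464 in the mutant.

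Genes with similar regions were mostly wider in the mutant. The first set was 648 non-member genes whose strongest wild-type H3K4me3 summit lay in the −log10 p range of the beta promoters (7.54 to 36.8). Of these, 11.3% had fewer bases in the mutant, 88.4% had more and 2.78% had lost the region from the mutant list. Among 165 non-member genes with H3K4me3 and no other mark in wild type, the shares were 15.8%, 83.6% and 5.45%. This second set included Gm10545, whose region is also that of Pcdha12. Both sets were chosen after the beta values were seen. With the mutant list alone trimmed from its weakest regions to the covered length of the wild-type list, H3K4me3 marked 11 of the 40 promoters in the mutant in place of 32, where the share of all genes was 60.1% in place of 62.5%. Such trimming can only lower mutant coverage, so it gives no further measure of the beta difference.

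**Figure D3:**
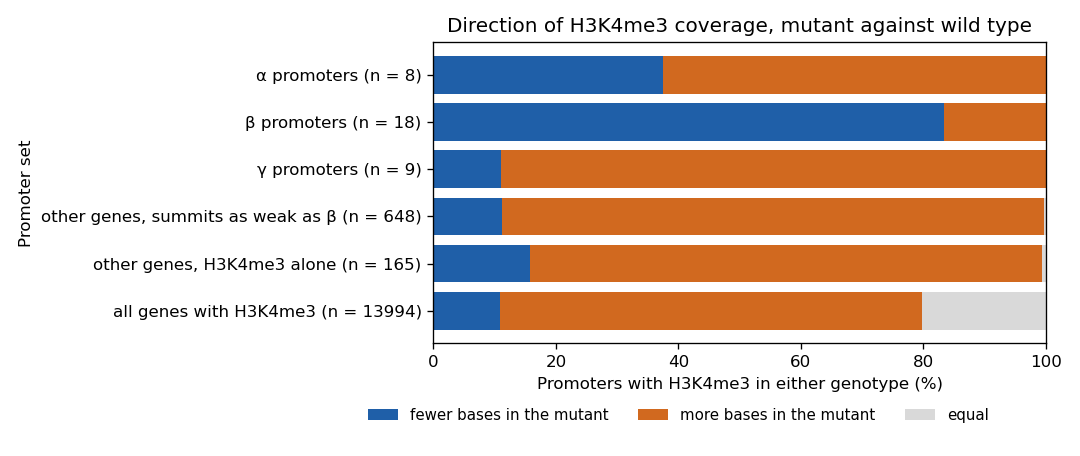
Share of promoters with H3K4me3 in either genotype that had fewer, more or equal covered bases in the mutant (horizontal axis, percent) for the 3 clusters and, below them, other genes with summits as weak as the beta promoters, other genes with H3K4me3 alone, and all genes. Fewer bases were found at 15 of 18 beta promoters but at 11.3%, 15.8% and 10.9% of the 3 sets of genes below.

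All 9 gamma promoters had H3K4me3 in both genotypes, and the direction was the reverse of that in the beta cluster. Coverage was larger in the mutant at 8 and smaller at 1, with wild-type and mutant sums of 9.605 and 11.058 kb. Pcdhga3, the first annotated gene of the cluster here, had 722 and 731 bases, Pcdhga8 623 and 905, and Pcdhgb6 827 and 1132. Pcdhga11 had 1170 and 1610 bases and Pcdhga12 667 and 721. Pcdhga9 was the exception, with 901 and 791. With 8 of 9 the gamma promoters followed the direction of most genes. The authors' median fold at gamma promoters other than the C-type was 10.2 in wild type and 13.8 in the mutant, against 6.90 and 5.89 at beta promoters and 29.1 and 34.7 over all genes. The beta medians are over the 18 promoters with a summit in wild type and the 15 with one in the mutant. As the lists differ in length, these folds describe each list and do not measure a change between genotypes.

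**Figure D4:**
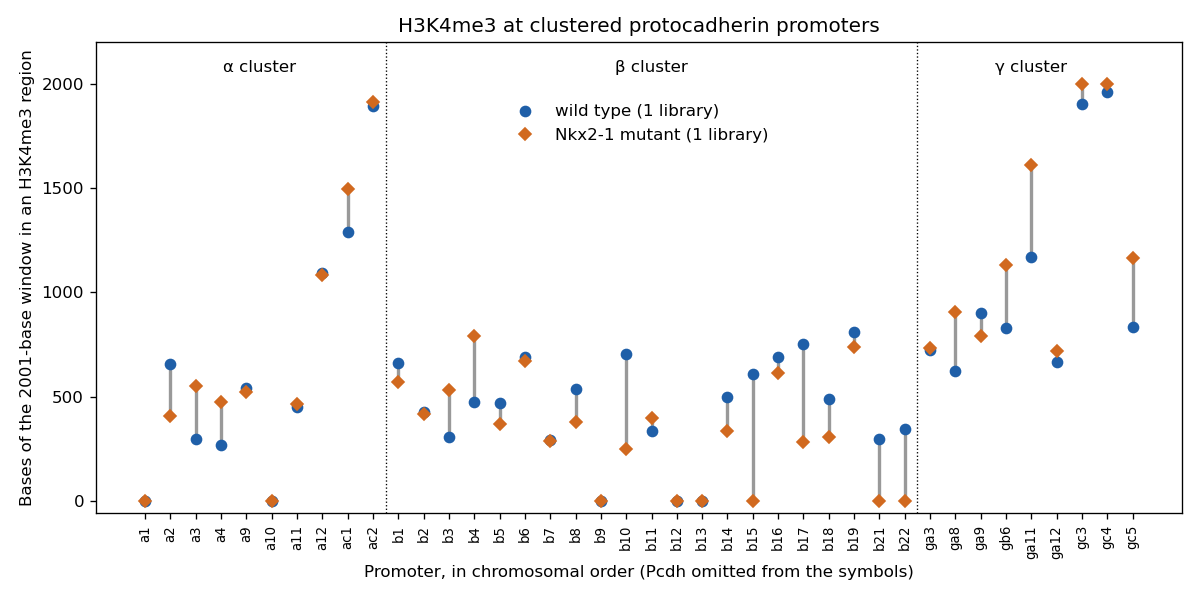
Bases of the 2001-base window inside an H3K4me3 region (vertical axis) for the 40 promoters in chromosomal order, as circles for wild type and diamonds for the mutant, 1 library each, joined by a grey line. Most beta diamonds lie below their circles, 3 of them at 0, and the gamma diamonds lie above except at Pcdhga9.

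H3K27me3 was found at gamma variable promoters and at C-type promoters, and nowhere else among the members. Pcdhga9 had 669 bases in wild type and 1167 in the mutant, Pcdhgb6 595 and 603, Pcdhga11 1679 and 1723, and Pcdhga12 847 and 1226. These 4 of the 6 gamma promoters other than the C-type also had H3K4me3 in both genotypes, a pairing found at 15.8% of all genes in wild type and 18.5% in the mutant. In the same order, the strongest wild-type H3K27me3 summits inside these windows had −log10 p 9.14, 7.91, 17.7 and 6.18. Regions at Pcdhgb6, Pcdhga11 and Pcdhga12 ran past the window, and summits outside it are not among these values. With −log10 p of at least 10 required of a region, 7 of the 9 members marked in wild type kept the mark, and Pcdhga9 did not. The strongest mutant summits inside the windows had 17.9, 42.9, 18.7 and 29.2. As the lists differ in length, these values describe each list and do not measure a change between genotypes. Over the 167.539 kb of the gamma cluster, the H3K27me3 regions of the wild-type list took up 18.148 kb (10.8%) and those of the mutant list 28.159 kb (16.8%), a ratio above the 1.32 of the whole list. Of the 9 members with the mark in either genotype, 7 had more bases in the mutant and 2 fewer, where 67.5% and 16.1% of all genes with the mark did. In the alpha cluster it covered 2.957 and 3.669 kb.

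At the annotated variable promoters, H3K27ac was found at 2 gamma genes alone. Gamma genes without an annotated start here are not covered by that count. Pcdhga11 had 518 bases in wild type and 681 in the mutant. Pcdhga12 had 0 in wild type and 250 in the mutant, the one promoter in the mutant list alone, where 2.36% of all genes were. That region was weak, at 3.17-fold with −log10 p 6.93, and was not counted once −log10 p of at least 10 was required or the mutant list was trimmed to the length of the wild-type list, which can only remove such calls.

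The 5 C-type promoters each had all 4 marks in wild type, against 9.29% of all genes, and 3 had all 4 in the mutant, against 12.6%. Several of the wild-type calls were marginal. H3K27me3 at Pcdhgc3 covered 20 bases with no summit in the window. H3K27me3 at Pcdhac1 and H3K27ac at Pcdhgc5 had −log10 p below 10. The strongest H3K27me3 summits inside the windows of Pcdhgc4 and Pcdhgc5 had −log10 p 6.74 and 8.52. Regions there ran past the windows, and both promoters were still counted with −log10 p of at least 10 required of a region. H3K4me3 covered 1289 bases in wild type and 1495 in the mutant at Pcdhac1, 1897 and 1912 at Pcdhac2, 1902 and 2001 at Pcdhgc3, 1960 and 2001 at Pcdhgc4, and 833 and 1166 at Pcdhgc5. All 5 were wider in the mutant. Pcdhgc3 had the strongest H3K4me3 summit of all members, at 37.7-fold in wild type and 43.8-fold in the mutant, and Pcdhgc5 the weakest of the C-type, at 5.77-fold and 7.85-fold.

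H3K27ac was called in both genotypes at 4 of the 5 C-type promoters and in wild type alone at Pcdhgc5. It covered 433 bases in wild type and 956 in the mutant at Pcdhac1, 1517 and 1781 at Pcdhac2, 1582 and 1685 at Pcdhgc3, and 1635 and 1692 at Pcdhgc4, but 456 and 0 at Pcdhgc5. Pcdhgc5 was the one member with H3K27ac in wild type alone, where 0.479% of all genes were, and its wild-type region was weak (2.87-fold, −log10 p 5.63). Over all 7 members with the mark, 6 had more bases in the mutant and 1 fewer, against 66.2% and 27.8% of all genes with it. Requiring 500 covered bases or −log10 p of at least 10 left no such promoter. Pcdhgc5 kept H3K4me1 almost in full, with 1647 and 1638 bases.

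H3K4me1 and H3K27me3 completed the C-type pattern. H3K4me1, which no other member had, covered 789 and 716 bases at Pcdhac1, 1445 and 1517 at Pcdhac2, 1282 and 992 at Pcdhgc3, and 1807 and 1799 at Pcdhgc4. It was narrower in the mutant at 4 of the 5 and wider at 1, against 60.5% and 38.6% of all genes with the mark. H3K27me3 covered 1201 and 1642 bases at Pcdhac2, 20 and 417 at Pcdhgc3, 495 and 573 at Pcdhgc4, and 938 and 701 at Pcdhgc5. At Pcdhac1 it covered 261 and 0 bases, the one member with H3K27me3 in wild type alone (0.389% of all genes), from a region of 3.37-fold and −log10 p 7.91. That call too was absent when 500 covered bases or −log10 p of at least 10 was required.

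The constant exons of the alpha and gamma clusters differed. Within 1 kb of each of the 3 alpha constant exons no mark was found in either genotype. The first gamma constant exon, with 1 kb on each side, was wholly inside H3K27ac and H3K4me1 regions in both genotypes, and its H3K4me3 share was 80.1% in wild type and 97.1% in the mutant. The second had no mark. The third was 71.8% and 66.3% covered by H3K27ac, 57.8% and 61.1% by H3K4me1 and 39.8% and 41.4% by H3K4me3. No H3K27me3 lay at any constant exon.

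Between constant exons 2 and 3 of the alpha cluster lay the most strongly acetylated site of the alpha cluster. In mm9 the H3K27ac region ran from 37337282 to 37339057 on chromosome 18 at 14.7-fold in wild type, and from 37335980 to 37339089 at 14.99-fold in the mutant. H3K4me3 there ran from 37336441 to 37338975 at 23.9-fold and from 37335981 to 37339007 at 32.9-fold. The site is intronic for the alpha genes and overlaps an exon of Gm10544, an antisense lincRNA record. The intron held 5 H3K27ac regions in the wild-type list and 3 in the mutant list, and all of them overlapped a region of the other genotype.

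Known enhancers of the clusters lie in and beyond their constant parts, but their positions are not in the files, so whole stretches were described. In the 77.34 kb after the alpha cluster, acetylated regions took up 1.592 kb of the stretch in the wild-type list and 1.86 kb in the mutant list. They formed a single site about 29 kb beyond the cluster, with regions from 37376274 to 37377110 and from 37377292 to 37378046 in wild type (10.4-fold and 10.2-fold) and from 37376226 to 37378085 in the mutant (13.5-fold). H3K4me3 at that site reached 28.8-fold and 35.5-fold. No annotated gene overlaps it. The 117.303 kb after the beta cluster held no region of any mark.

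The 49.253 kb after the gamma cluster, nearly all inside the antisense gene Diap1 (a formin that nucleates actin filaments), was the most acetylated of the stretches. Its H3K27ac regions took up 11.585 kb (23.5%) in the wild-type list and 12.275 kb (24.9%) in the mutant list. For the same lists H3K4me1 covered 7.41 and 7.981 kb, H3K4me3 3.901 and 4.931 kb, and H3K27me3 nothing. All 10 wild-type H3K27ac regions overlapped a mutant region, and 1 of the 9 mutant regions was in that genotype alone. The strongest, at 19.4-fold in wild type, ran from 38039180 to 38039959 within an intron of Diap1, and its mutant counterpart, from 38038416 to 38040482, had 22.1-fold. Another, from 37999977 to 38003799 at 16.5-fold in wild type and 18.9-fold in the mutant, ran from inside gamma constant exon 3 into the last exon of Diap1.

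**Figure D5:**
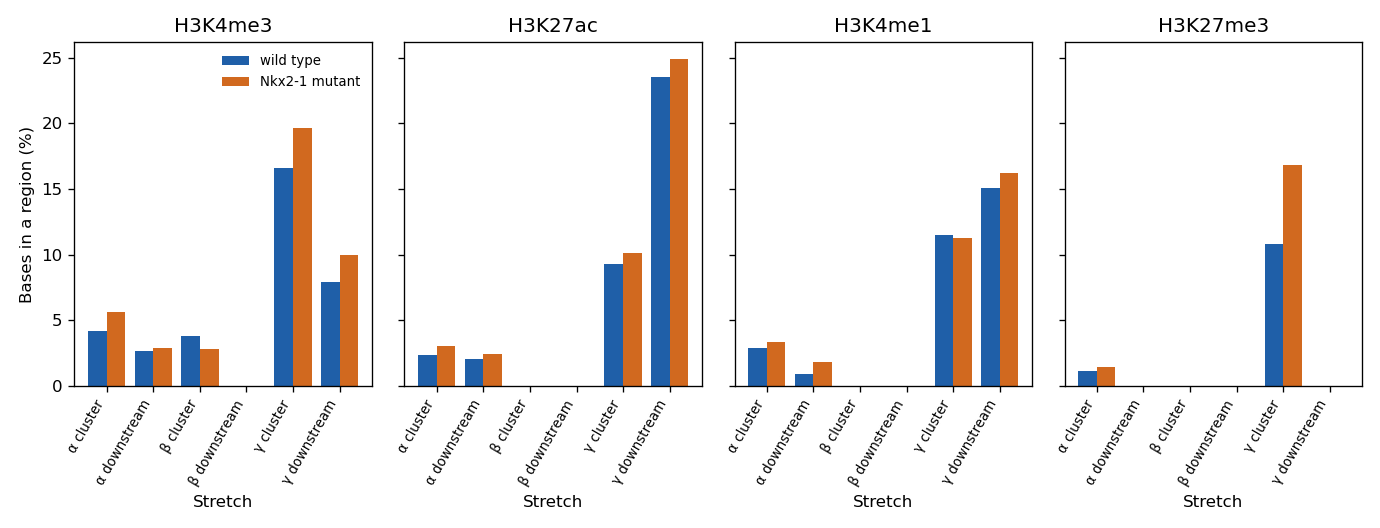
Share of bases inside regions (vertical axis, percent) for 4 marks in the 3 clusters and in the stretch after each, up to the next protein-coding TSS, with wild type in blue and the mutant in orange, 1 library each. The beta cluster has H3K4me3 alone, the stretch after it has no mark, and the stretch after the gamma cluster has the largest H3K27ac share (23.5% and 24.9%) with no H3K27me3.

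Neither factor had a peak in the locus. Over the 911.589 kb from 37089939 to 38001527 there were 0 NKX2-1 and 0 LHX6 peaks, so 0 of 40 promoters had either, against 6.18% and 0.192% of all genes. The nearest NKX2-1 peaks were 195 kb before the alpha cluster and 172 kb after the gamma cluster, among 202 on the chromosome. The nearest LHX6 peaks were 2860 kb before and 2466 kb after, among 46. These lists came from a different strain and dissection than the marks.

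Sequence features, which did not enter the choice of members, differed between groups of promoters. The windows had a median GC content of 42.7%, against 51.2% for all genes. It was 42.1% for beta, 41.9% and 46.0% for alpha and gamma promoters other than the C-type, and 52.2% for C-type promoters. The observed over expected ratio of CpG dinucleotides had a median of 0.431, against 0.467 over all genes. In the same groups it was 0.342, 0.611, 0.499 and 0.566, so only beta lay below all genes. The letters CGCT, the core of an element known from protocadherin promoters, occurred on the sense strand from 250 bases before to 50 bases after the TSS in 92.5% of the members and 51.8% of all genes, and on either strand in 97.5% and 68.1%. Pcdhga12 was the one member without it on either strand. A match of 4 letters is a description of the sequence, not of a bound site.

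Near-identical copies bear on which promoters could be read with tags of 46 to 51 bases. The share of 50-base words in a window with another exact copy in the genome had a median of 1.69% and a maximum of 13.1%. It was 6.61% at Pcdha1, 12.04% at Pcdha10, 13.1% at Pcdhb9, 12.7% at Pcdhb12 and 0 at Pcdhb13, the 5 promoters without H3K4me3, and had a median of 0.154% at those with it, where Pcdha11 and Pcdhb11 reached 12.2%. At Pcdhb15, Pcdhb21 and Pcdhb22 it was 0 to 0.154%. The part of copied sequence in the absence of a region was not tested.

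Of 13 matched regulators of the clusters, among them Ctcf and the cohesin subunit gene Rad21, all had H3K4me3 and 12 had H3K27ac in both genotypes, and none changed in presence of either mark. Over all genes, H3K4me3 was at 61.4% in wild type and 62.5% in the mutant, H3K27ac at 53.7% and 55.6%, and H3K27me3 at 17% and 19.6%. Setdb1, a histone methyltransferase gene, was the one with H3K4me3 alone, and Dnmt3b, a DNA methyltransferase gene, the one with H3K27me3 (454 bases in wild type and 492 in the mutant). H3K27ac covered 1933 bases at Ctcf in wild type and 1926 in the mutant, and 1940 and 2001 at Smchd1, which encodes a chromosome-silencing protein. All 12 matched genes for partners of the intracellular domains had H3K4me3 in both genotypes, 10 had H3K27ac and 2 had H3K27me3. At Fyn, a kinase gene, H3K27ac covered 1814 and 1819 bases with no H3K27me3. The kinase genes Ret and Ptk2b had no H3K27ac, and H3K27me3 covered the whole window of 2001 bases in both genotypes.

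The non-clustered protocadherin genes lie outside the 3 clusters, Pcdh1 and Pcdh12 on the same chromosome. Of 12, 9 had H3K4me3 in wild type and 10 in the mutant (61.4% and 62.5% of all genes), and 8 had H3K27ac in both (53.7% and 55.6%). H3K4me3 without another mark was found at 0 in wild type and 1 (Pcdh12, with 600 bases) in the mutant, against 0.824% and 0.949% of all genes. Their median H3K4me3 coverage was 1915 bases in wild type and 1972 in the mutant, against 575 and 498.5 at all 40 clustered promoters. Pcdh10 and Pcdh17, which encode neuronal adhesion proteins, each had 2001 bases in both genotypes.

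Of 20 genes that were no members, inside the locus or within 250 kb of it, 16 had H3K4me3 in both genotypes (61.4% and 62.5% of all genes), and H3K27ac was at 13 in wild type and 14 in the mutant (53.7% and 55.6%). H3K27me3 was at 1 in wild type and 3 in the mutant (17% and 19.6%), with Rell2 (269 bases) and Arap3 (453 bases) in the mutant list alone. Arap3 also had 283 bases of H3K27ac in the mutant and 0 in wild type. H3K4me3 without another mark was found at 3 in wild type (Gm10545, 3222401L13Rik and Arap3) and 2 in the mutant.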

How the data were processed

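Peak lists of 10 ChIP-seq libraries were used, with 1 library per antibody and genotype. Peaks were called with MACS2 (2.1.0.20140616) at a p limit of 1e-05 with an extension of 250 bases, per the file headers; BWA 0.6.2 and mm9 are named in the submitters' processing notes. The deposited lists give each summit's pileup signal, its −log10 p and its fold enrichment over input (a ratio), all computed by the authors; signal was not used further. Libraries held 26.8 to 89.1 M tags after duplicates (0.634% to 34.0%) were removed, per the file headers.

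Summits of a region were merged by its start and end. Covered bases were counted within 1 kb of the TSS in the mm9 GENCODE annotation. Member TSSs within 1000 bases of each other were merged. Alpha and gamma promoters were named where the distance to the cluster's end matched that of 1 RefSeq gene (GRCm38.p6, names only) within 500 bases. All genes were counted with 1 TSS per record, from the longest coding sequence, members included. The design had assumed 1 TSS per gene for members too. Code was checked on simulated regions. The plan was to name the C-type genes, the first and last gene of each cluster and those marked in 1 genotype alone. Other promoters named with values, among them alpha, beta and gamma variable promoters, go beyond that plan. The members, lists and rules were chosen with earlier results of these data known. With no replicates there was no test, and intervals were not computed for covered bases. Alternatives were another coverage minimum, window, −log10 p limit, matched list length and every annotated TSS. Python 3.11.15, numpy 2.4.6, pandas 2.3.3 and matplotlib 3.10.9 were used.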

Additional observations from a re-analysis of the deposited data

How the results depend on the processing

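No paired analysis was possible because each antibody and genotype had 1 library and the numbers in the labels belong to inputs alone. Over 22 counts and up to 5 alternatives, 80 of 98 values stayed within 1.5 times the reported count. With 500 covered bases required, H3K4me3 marked 22 promoters in wild type and 20 in the mutant, with 5 in wild type alone and 3 in the mutant alone (59.5%, 60.7%, 0.0582% and 1.20% of all genes); H3K27ac in wild type alone and H3K27me3 in wild type alone were each 0 (0.474% and 0.260%), and H3K27me3 in the mutant alone was 1 (2.48%). With −log10 p of at least 10, H3K4me3 was in wild type alone at 5 and in the mutant alone at 2 (0.130% and 1.15% of all genes), H3K27ac at 0 and 0 (0.510% and 2.67%), and H3K27me3 at 0 and 1 (0.398% and 3.02%). A window of 500 bases either side gave 1 promoter with H3K27me3 in the mutant alone (2.63%). With the mutant lists trimmed to the covered length of the wild-type lists, H3K4me3 marked 11 promoters in the mutant and was in wild type alone at 24 (60.1% and 1.44% of all genes), H3K27ac was in the mutant alone at 0 (1.29%), and H3K4me3 without another mark was found at 3 promoters in the mutant; trimming removes the weakest mutant regions by construction, so it can only lower mutant counts. The count of beta promoters with fewer H3K4me3 bases in the mutant was 15 with the narrower window, 14 with −log10 p of at least 10 and, by construction, 18 with trimmed lists, and that of gamma promoters with more was 7 to 8; these alternatives were chosen after seeing the data. Weak regions and single libraries limit every count in 1 genotype alone.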

Other observations

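H3K4me3 regions also lay in the clusters away from the annotated promoters. Upstream of the gamma constant exons there were 13 in wild type and 14 in the mutant, with median lengths of 727 and 865 bases. All 13 overlapped a mutant region, and 2 of the 14 were in the mutant alone. Upstream of the alpha constant exons there were 2 in wild type and 6 in the mutant, and 4 of the 6 were in the mutant alone. Those 4 included a region from 37127255 to 37127811. The rest of them lay between 37305594 and 37308208, downstream of the mutant H3K4me3 region of Pcdhac2, which ended at 37305180. In the beta cluster the one such region was that of Pcdhb20. The clusters hold 18 RefSeq genes with no annotated start here, and these regions were not assigned to them. H3K27me3 regions away from annotated gamma promoters numbered 16 in wild type and 18 in the mutant, with median lengths of 329.5 and 535.5 bases, of which 3 and 8 were in that genotype alone. H3K27ac regions away from annotated gamma promoters and upstream of the constant exons numbered 3 in wild type and 7 in the mutant. All 3 overlapped a mutant region, and 4 of the 7 were in the mutant alone.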
